A study of Gallus gallus with 12 samples.

Results

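Immediate early genes are transcribed within minutes of a stimulus, such as a growth factor, an injury or the dissociation of a tissue, without waiting for new protein to be made. *FOS*, *FOSL2* and *JUN* encode subunits of the dimeric transcription factor AP-1, *EGR1* encodes a zinc finger transcription factor, and *ATF3* encodes a stress-induced bZIP repressor that can pair with JUN. *DUSP1* encodes the nuclear phosphatase that switches MAP kinases off again, *BTG2* encodes an antiproliferative cofactor that p53 can induce, and *MYC* encodes a growth-promoting transcription factor. In many tissues these transcripts climb while cells are dissociated and sorted, so they are read both as signs of signalling in the tissue and as signs of handling.

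These genes were followed in primordial germ cells (PGCs), the precursors of eggs and sperm, of the chicken. Of 9 gene names sought (*FOS*, *FOSL2*, *JUN*, *EGR1*, *ATF3*, *IER2*, *DUSP1*, *MYC* and *BTG2*), 8 were found as exact names among the 24356 genes of the expression table, and *IER2* was not among the table's names. RNA-seq was performed on 12 libraries, 2 pools for each of 2 sexes at 3 stages, and each pool held sorted PGCs of 6 to 14 white Leghorn embryos. The groups were E2.5 female (ZW) and E2.5 male (ZZ) PGCs taken from circulating blood, E4.5 female and male PGCs taken from gonads, and E6.5 female and male PGCs taken from gonads. All embryos were untreated, and each was sexed by PCR of *CHD1* fragments. All cells were stained for the surface antigen SSEA-1 on ice and sorted alive by FACS, so a pool can also hold other cells that carry this antigen. The paper stained sorted cells for the germ cell protein CVH and reported nearly all as positive at every stage and in both sexes. Gonads, but not blood, went through an enzymatic dissociation (TrypLE) before staining. Embryonic age, source tissue and dissociation therefore change together between E2.5 and the later stages, and their parts in any difference between those stages cannot be told apart.

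Each library held 7185031 to 13749166 reads on genes, and 3 reads on a gene of 1000 bases correspond to 0.386 to 0.702 TPM (read counts scaled by gene length and by the library's total). Germ cell markers were abundant throughout, with a summed level of 9 markers of 2549 to 4934 TPM. Erythroid markers (9 of 16 names in the table) summed to 2571 to 165417 TPM in the 4 blood libraries, against 96.3 to 631 TPM in the 8 gonad libraries. Gonadal somatic markers (9 genes) never summed to more than 11.8 TPM.

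All 8 genes lie on autosomes of GRCg6a. *MYC* (ENSGALG00000033631) lies on chromosome 2 at 139734098 to 139738744 on the plus strand. *ATF3* (ENSGALG00000049422) and *FOSL2* (ENSGALG00000010036) lie on the minus strand of chromosome 3, at 21942839 to 21967759 and 27500695 to 27510879. *FOS* (ENSGALG00000028037) is on chromosome 5 at 38430793 to 38433702, plus strand, and *JUN* (ENSGALG00000010870), a single-exon gene, is on chromosome 8 at 26714120 to 26715827, minus strand. *DUSP1* (ENSGALG00000040360) and *EGR1* (ENSGALG00000007669) share chromosome 13, at 9770031 to 9772644 on the minus strand and 18949948 to 18952753 on the plus strand. *BTG2* (ENSGALG00000052763) is on chromosome 26 at 5122814 to 5126845, plus strand. The gene models are 972 (*FOSL2*) to 3820 (*ATF3*) bases long. The spans of *JUN* and *DUSP1* each overlap 1 gene on the opposite strand and that of *ATF3* overlaps 2, and since no strand-marking step is described, reads of such partners may not be separable.

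*JUN* was the most abundant of the genes over the 12 libraries, with a mean level of 37.8 TPM, followed by *DUSP1* with 22.0 TPM, *FOS* with 8.96 TPM and *BTG2* with 8.05 TPM. *MYC* had a mean of 5.93 TPM, *FOSL2* of 5.46 TPM, *ATF3* of 3.42 TPM and *EGR1* of 3.30 TPM. *JUN* exceeded *DUSP1* in 9 of 12 libraries, *DUSP1* exceeded *FOS* in 11 of 12, *BTG2* exceeded *MYC* in 10 of 12 and *FOSL2* exceeded *ATF3* in 10 of 12. The other neighbours in the order were not separated. *FOS* exceeded *BTG2* in 7 of 12 libraries, *ATF3* exceeded *EGR1* in 6 of 12, and *MYC*, whose mean was carried by a few libraries, exceeded *FOSL2* in only 3 of 12. The genes were thus low to moderate transcripts, and the 8 together summed to 48.0 to 196 TPM per library. *FOSL2* varied least, between 2.90 and 8.07 TPM with a coefficient of variation of 27.3%. *MYC* varied most, between 0.292 and 24.6 TPM with a coefficient of variation of 116%, and its lowest value rested on 5 reads.

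**Figure D1:**
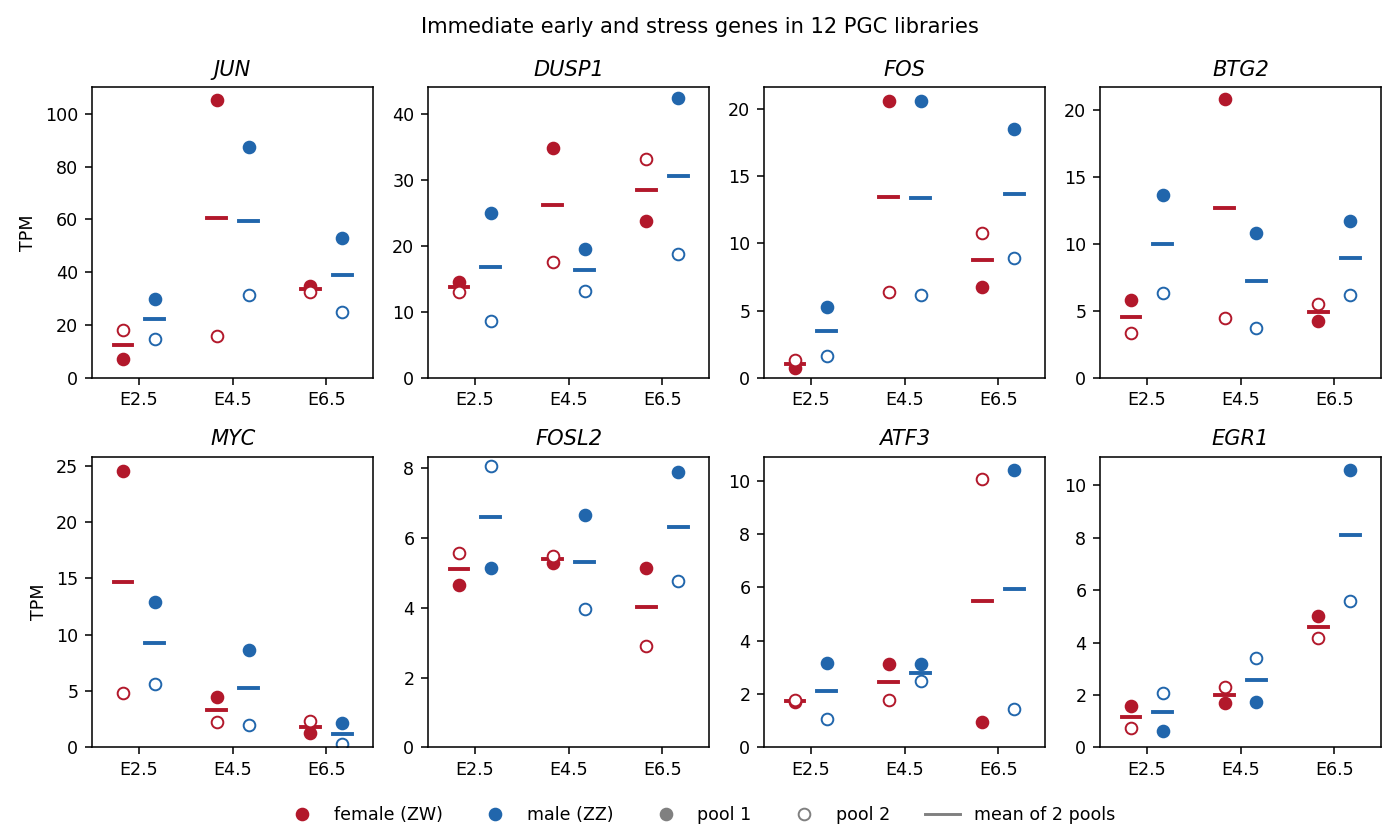
Level of each gene in TPM (y axis, linear, from 0) by stage (x axis), with female pools in red to the left of male pools in blue, pool 1 filled, pool 2 open and a bar at the mean of the 2 pools. *FOS* and *EGR1* are low in all 4 E2.5 libraries, *MYC* is highest at E2.5, and pool 1 stands far above pool 2 for *JUN*, *FOS* and *BTG2* at E4.5.

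The 3 AP-1 genes behaved differently from each other over the stages. *FOS*, the classical immediate early partner of JUN, had 0.692 and 1.33 TPM in female and 5.28 and 1.61 TPM in male pools at E2.5. It had 20.6 and 6.36 TPM in female and 20.6 and 6.15 TPM in male pools at E4.5. At E6.5 it had 6.74 and 10.8 TPM in female and 18.5 and 8.90 TPM in male pools. All 8 gonad libraries therefore lay above all 4 blood libraries. *JUN* had 6.95 and 17.9 TPM in female and 29.8 and 14.7 TPM in male pools at E2.5. At E4.5 it had 105 and 15.7 TPM in female and 87.5 and 31.3 TPM in male pools, and at E6.5 34.8 and 32.4 TPM in female and 52.9 and 24.9 TPM in male pools. The *JUN* ranges overlapped between every pair of stages. *FOSL2* showed no such shift, with 4.65 to 8.07 TPM at E2.5, 3.97 to 6.66 TPM at E4.5 and 2.90 to 7.90 TPM at E6.5.

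*EGR1* had 1.59 and 0.750 TPM in female and 0.627 and 2.07 TPM in male pools at E2.5. At E4.5 it had 1.69 and 2.32 TPM in female and 1.74 and 3.41 TPM in male pools, and at E6.5 5.03 and 4.19 TPM in female and 10.6 and 5.60 TPM in male pools. The 4 E6.5 libraries were above all 8 earlier ones, while E4.5 and E2.5 overlapped. *MYC* ran the other way. It had 24.6 and 4.82 TPM in female and 12.9 and 5.61 TPM in male pools at E2.5, 4.46 and 2.22 TPM in female and 8.62 and 1.95 TPM in male pools at E4.5, and 1.25 and 2.30 TPM in female and 2.13 and 0.292 TPM in male pools at E6.5. Every E6.5 library was below every E2.5 library.

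Among the remaining genes, *DUSP1* averaged 15.2 ± 6.91 TPM at E2.5, 21.3 ± 9.40 TPM at E4.5 and 29.5 ± 10.4 TPM at E6.5 (SD, n = 4 each), with overlapping ranges. *BTG2* averaged 7.28 ± 4.46, 9.96 ± 7.91 and 6.92 ± 3.30 TPM at these stages. *ATF3* had 1.04 to 3.14 TPM in the 8 libraries of E2.5 and E4.5, and at E6.5 it split within both sexes, with 0.930 and 10.1 TPM in female and 10.4 and 1.45 TPM in male pools.

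The comparison of gonadal PGCs at E6.5 with circulating PGCs at E2.5, both sexes together with sex as a covariate, asked which of the genes differed between the ends of the series. *FOS* and *EGR1* rose and *MYC* fell. *FOS* averaged 11.2 ± 5.12 TPM at E6.5, against 2.23 ± 2.07 TPM at E2.5 (SD, n = 4 each), a 5.04-fold ratio of means. On the log2(TPM + 1) scale, which understates changes of low genes, the fold change of *FOS* was 2.02 with a standard error of 0.39 (limma, Benjamini-Hochberg adjusted p = 0.0137). *EGR1* averaged 6.35 ± 2.88 TPM at E6.5, against 1.26 ± 0.690 TPM at E2.5, with a log2 fold change of 1.68 ± 0.36 (SE, limma adjusted p = 0.0204). *MYC* averaged 1.50 ± 0.924 TPM at E6.5, against 11.97 ± 9.14 TPM at E2.5, with a log2 fold change of -2.21 ± 0.49 (SE, limma adjusted p = 0.0239). In bulk samples such as these, fewer cells of a type and less RNA per cell cannot be told apart.

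The other 5 genes did not pass the test at E6.5 over E2.5. *JUN* averaged 36.2 ± 11.9 TPM at E6.5, against 17.3 ± 9.48 TPM at E2.5 (SD, n = 4 each), with a log2 fold change of 1.13 (limma adjusted p = 0.0789). *DUSP1* had a log2 fold change of 0.93 (adjusted p = 0.118) and *ATF3* of 0.81 (adjusted p = 0.391). *FOSL2*, at -0.19 (adjusted p = 0.740), and *BTG2*, at 0.00 (adjusted p = 0.997), were the closest to no difference. The count of 3 of 8 called genes stands beside a share of 6.79% called among the 13395 genes tested (2.37% higher and 4.41% lower). Ranges without overlap were found for the same 3 genes, while 5.83% of all genes lay wholly higher and 8.60% wholly lower at E6.5. The median log2 fold change was 0.87 over the 8 genes and -0.11 over all genes tested. The calls were close to the threshold of 0.05. None of the 3 was called when all 12 libraries shared one fit (adjusted p = 0.0673 for *FOS*, 0.0543 for *EGR1* and 0.0737 for *MYC*) or without the filter on low values (0.0513, 0.0642 and 0.0823 for *FOS*, *EGR1* and *MYC*).

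**Figure D2:**
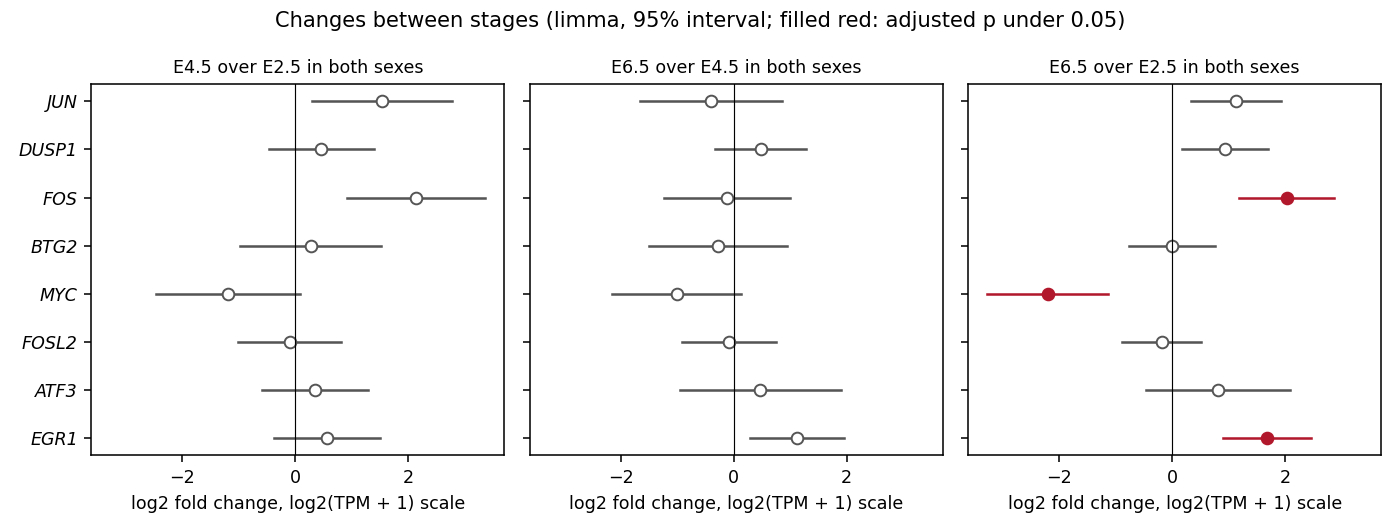
Log2 fold change of each gene between stages (x axis, log2(TPM + 1) scale, later over earlier, n = 4 libraries each), with its 95% interval from limma, filled red where the adjusted p is under 0.05. *FOS*, *EGR1* and *MYC* at E6.5 over E2.5 are the calls, and the *FOS* value is about as large at E4.5 over E2.5 but with a wider interval.

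The E6.5 and E2.5 difference was seen in each sex. For *FOS* the log2 difference between the stages' means was 2.27 in females and 1.78 in males, for *EGR1* 1.39 in females and 1.97 in males, and for *MYC* -2.16 in females and -2.25 in males. In both sexes the pools of the 2 stages did not overlap for any of these 3 genes. This follows from the lack of overlap over all 4 libraries of each stage and adds no separate support. For *JUN* the log2 difference was 1.50 in females and 0.77 in males, and for *DUSP1* it was 0.98 in females and 0.88 in males. The interaction of sex and stage, tested over all 12 libraries, called neither.

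Single libraries moved these calls. *FOS* was called in all 8 fits that left out 1 library. *MYC* was not called without E2.5 female pool 1 (log2 fold change -1.79, limma adjusted p = 0.0547), without E6.5 male pool 2 (-1.94, adjusted p = 0.0798) or without E6.5 female pool 1 (-2.10, adjusted p = 0.0643). *EGR1* was not called without E2.5 female pool 2 (adjusted p = 0.0637), E6.5 male pool 1 (0.0555), E6.5 male pool 2 (0.0508) or E6.5 female pool 1 (0.0551). Without E2.5 male pool 1, which had the highest *JUN* and *DUSP1* levels of its stage, both of these genes were called (log2 fold change 1.40, adjusted p = 0.0322 and 1.23, adjusted p = 0.0352). The number of called genes ran between 1 and 5 of 8 over these fits.

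The order of *MYC* at E2.5 was also the order of the erythroid markers, a sign of blood cells in the sorted pools. *MYC* had 24.6, 12.9, 5.61 and 4.82 TPM in E2.5 female pool 1, male pool 1, male pool 2 and female pool 2, where erythroid markers summed to 165417, 44514, 15890 and 2571 TPM. The gonad libraries, with 96.3 to 631 TPM of these markers, held 0.292 to 8.62 TPM of *MYC*. The shared order did not hold within the gonad stages. At E4.5 male pool 1 had 8.62 TPM of *MYC* with 175 TPM of these markers, and female pool 2 had 2.22 TPM with 453 TPM. At E6.5 female pool 1, with 631 TPM of the markers, had 1.25 TPM of *MYC*, and female pool 2 had 2.30 TPM with 294 TPM. With the erythroid markers removed and TPM rescaled, *MYC* had a log2 fold change of -2.29 (limma adjusted p = 0.0221), and with both first pools of E2.5 left out it had -1.40 (adjusted p = 0.0738). Leukocyte and thrombocyte markers (7 genes) also stood apart in E2.5 male pool 1, at 62.5 TPM, against no more than 19.4 TPM in any other library. *LAPTM5*, at 35.7 TPM, *CSF1R*, at 8.38 TPM, and *SPI1*, at 5.61 TPM, were highest in that pool. Other markers on the list did not follow. *CD74* had 11.4 TPM there, against 18.7 TPM in E6.5 female pool 2. *PTPRC* had 1.32 TPM there, against 1.71 TPM in E2.5 male pool 2. The rescaling leaves any *MYC* RNA of blood cells in place, and the part of blood cells in the *MYC* values was not tested.

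**Figure D3:**
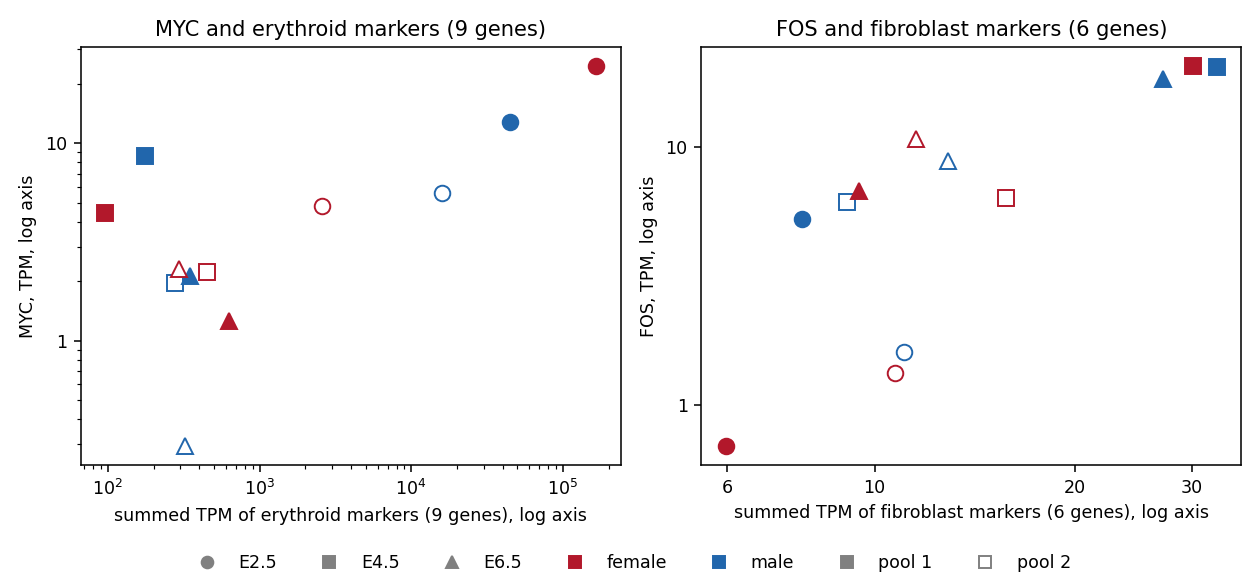
Left, *MYC* against the summed level of 9 erythroid markers, and right, *FOS* against the summed level of 6 fibroblast markers, each point 1 library (TPM, log axes; red female, blue male; circles E2.5, squares E4.5, triangles E6.5; filled pool 1, open pool 2). The E2.5 libraries with 165417 and 44514 TPM of erythroid markers have the highest *MYC*, and the 3 libraries above 27 TPM of fibroblast markers have the highest *FOS*.

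Between E4.5 and E2.5, the step from blood to gonad, *FOS* separated the stages most clearly. It averaged 13.4 ± 8.29 TPM at E4.5, against 2.23 ± 2.07 TPM at E2.5 (SD, n = 4 each), with no overlap, where 1.79% of all genes lay wholly higher. The log2 fold change of 2.14 ± 0.56 (SE) did not pass the adjusted threshold (limma adjusted p = 0.277, unadjusted p = 0.0023). *JUN*, at 59.9 ± 43.1 TPM at E4.5, against 17.3 ± 9.48 TPM at E2.5, had a log2 fold change of 1.53 (adjusted p = 0.540, unadjusted p = 0.0189). *EGR1* had 0.56 (adjusted p = 0.779) and *MYC* had -1.19 (adjusted p = 0.626). With limma, 0 of 8 genes were called and 2, both higher, had an unadjusted p under 0.05 (2.31% of all genes did so and were higher), while 0.0739% of 13540 genes tested were called. With both first pools of E4.5 left out, the log2 fold change was 1.36 for *FOS* and 0.50 for *JUN*.

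Between E6.5 and E4.5, both taken from gonads through the same dissociation, *EGR1* was the gene whose levels did not overlap. It averaged 6.35 ± 2.88 TPM at E6.5, against 2.29 ± 0.797 TPM at E4.5 (SD, n = 4 each), with a log2 fold change of 1.12 (limma adjusted p = 0.493, unadjusted p = 0.0138), and 3.79% of all genes lay wholly higher. *MYC* had a log2 fold change of -1.01 (adjusted p = 0.493). *FOS* and *JUN* had -0.12 and -0.40, which turned to 0.67 and 0.63 when both first pools of E4.5 were left out. With limma, 0 of 8 genes and 0% of 13360 genes were called, and *EGR1* alone of the 8 had an unadjusted p under 0.05, where 6.92% of all genes were higher with such a p.

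None of the 8 genes was called between the sexes at any stage. At E2.5, where 0.242% of all genes were called, *FOS* (0.692 and 1.33 TPM in females, against 5.28 and 1.61 TPM in males) and *BTG2* (5.80 and 3.33 TPM in females, against 13.7 and 6.30 TPM in males) were lower in both female pools than in both male pools. Their log2 fold changes were -1.03 and -0.93 (limma adjusted p = 0.530 and 0.562). This separation was common, since 36.5% of all genes lay wholly lower in females at E2.5 and the median of all genes was -0.34. At E4.5, where 0.0164% of all genes were called, the female and male pools overlapped for all 8 genes, while 8.01% of all genes lay wholly higher and 9.17% wholly lower in females. At E6.5, where 2.19% of all genes were called and 28.2% lay wholly lower in females, the separated genes were *EGR1* (5.03 and 4.19 TPM in females, against 10.6 and 5.60 TPM in males) and *BTG2* (4.23 and 5.54 TPM in females, against 11.7 and 6.18 TPM in males), with log2 fold changes of -0.64 and -0.71 (adjusted p = 0.514 and 0.468). With limma, 0 of 8 genes had an unadjusted p under 0.05 in any of the 3 sex comparisons. With 2 pools a sex, an exact permutation test of a single gene could not go below p = 0.333. The test of whether the sex difference changed with stage called 0 of the 8 genes and 0% of 14154 genes (limma, unadjusted p between 0.328 and 0.996 for the 8 genes).

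The 2 pools of a group could differ widely. In TPM, at E4.5 pool 1 exceeded pool 2 for *FOS* by 3.25-fold in females and 3.34-fold in males, for *JUN* by 6.70-fold in females and 2.79-fold in males, and for *BTG2* by 4.64-fold in females and 2.89-fold in males. These first pools also differed broadly, since 34.5% of all expressed genes in females and 34.0% in males were at least 2-fold higher in pool 1 on the log2(TPM + 1) scale. Of the 8 genes, 3 in females and 4 in males were so. The E4.5 first pools also held the fewest reads on genes, 7185031 in females and 7566925 in males, against 9115332 or more elsewhere. The paper used a low-input cDNA kit for its libraries, since RNA yields were very low. The part of depth and amplification was not tested. The E6.5 male pools differed less broadly over all genes. All 8 genes were higher in pool 1, 4 of them at least 2-fold on that scale, while 52.8% of all expressed genes were higher there and 5.68% at least 2-fold. In the E6.5 female pools, 3 of 8 genes were higher in pool 1 and none by 2-fold, while 61.9% of all expressed genes were higher there and 4.43% at least 2-fold. In the E2.5 male pools, 6 of 8 genes were higher in pool 1 and 5 at least 2-fold, beside 59.8% and 16.7% of all expressed genes. In the E2.5 female pools, 4 of 8 were higher in pool 1 and 1 at least 2-fold, beside 27.5% and 4.05%. *ATF3* had the widest TPM ratio of the 8 genes, 10.8-fold higher in pool 2 in E6.5 females, and was 7.18-fold higher in pool 1 in E6.5 males. *MYC* was higher in pool 1 in 5 of 6 groups, by 2.00-fold to 7.30-fold in TPM.

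**Figure D4:**
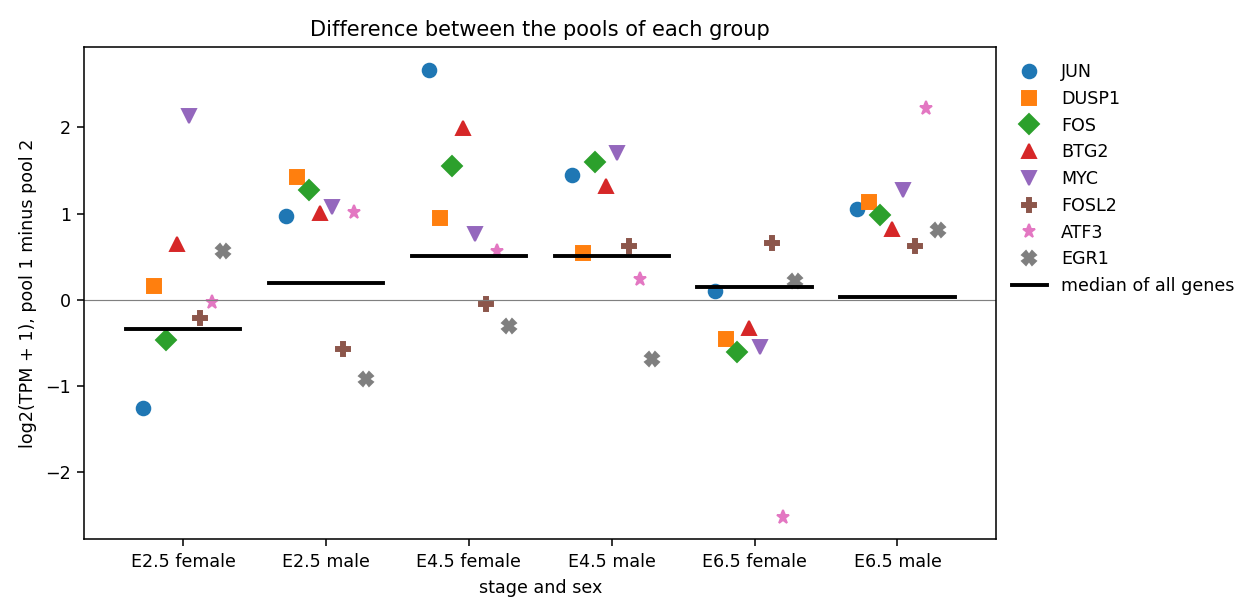
Difference of log2(TPM + 1), pool 1 minus pool 2 (y axis), for each gene (symbols) in each group (x axis), with a black bar at the median of all expressed genes. All 8 genes lie above 0 in E6.5 males while the median of all genes there is 0.04, and *ATF3* lies at opposite ends in E6.5 females and males.

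Markers of other cells moved with some of these pools. Fibroblast markers (6 of 6 in the table) summed to 32.6 TPM in E4.5 male pool 1, 30.1 TPM in E4.5 female pool 1 and 27.1 TPM in E6.5 male pool 1, and to 5.98 to 15.7 TPM elsewhere. The same 3 libraries had the highest *FOS*, at 20.6, 20.6 and 18.5 TPM. These sums rested mostly on *COL3A1*, at 25.6, 27.6 and 26.0 TPM in E4.5 male, E4.5 female and E6.5 male pool 1. *COL1A2* was highest in the E4.5 first pools, at 2.01 TPM in males and 1.60 TPM in females. In E6.5 male pool 1 it had 0.459 TPM, below the 1.14 TPM of E2.5 male pool 1. *PDGFRA* was highest in the same 3 libraries but did not exceed 0.229 TPM. The remaining markers on the list did not follow. *COL1A1* had 4.75 TPM in E4.5 male pool 1 but 0.429 TPM in E4.5 female pool 1 and 0.431 TPM in E6.5 male pool 1, below the 0.715 to 2.14 TPM of the E2.5 libraries. *DCN* was highest in E6.5 female pool 2, at 1.68 TPM, and *PDGFRB* did not exceed 0.131 TPM in any library. Gonadal somatic markers also summed highest in E4.5 male, E4.5 female and E6.5 male pool 1, at 7.17, 9.33 and 11.8 TPM, against 1.86 to 6.37 TPM elsewhere. Among them *SOX9* was highest there, at 3.89, 3.45 and 3.51 TPM. *AMH* followed only in part, with 5.60 TPM in E6.5 male pool 1 and 2.82 TPM in E4.5 female pool 1. In E4.5 male pool 1 it had 0.535 TPM, below the 2.37 TPM of E6.5 male pool 2. *LHX9* was highest in E4.5 female pool 2, at 2.75 TPM, and *NR5A1* in E2.5 male pool 2, at 0.870 TPM. Mesonephric markers (6 of 8 in the table) summed to 40.9 TPM in E6.5 female pool 2, where *ATF3* was 10.1 TPM, and to no more than 9.22 TPM elsewhere. E6.5 male pool 1, with *ATF3* at 10.4 TPM, had 4.14 TPM of mesonephric markers. The part of these cells in the values was not tested.

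*FOS* and *JUN* varied together over the libraries. On the log2(TPM + 1) scale their Pearson r was 0.901 over 12 libraries (permutation p = 8e-05, adjusted over 28 pairs 0.00224) and Spearman's rho was 0.874 (permutation p = 0.00044, adjusted 0.0123). Pearson's r was 0.837 without the 2 libraries farthest from the median of *JUN* and 0.906 after each group's mean was subtracted. The libraries left out were E2.5 female pool 1 and E4.5 female pool 1, so E4.5 male pool 1 stayed in. Each value within groups rests on 1 difference between pools in each of 6 groups, not on 12 separate values. Libraries far from the median of the second gene of a pair, here *FOS*, were not left out. Other genes followed each of them more closely, such as *ZNF511* with *FOS* (r 0.937) and *L3HYPDH* with *JUN* (r 0.937), the closest of 7331 genes searched. A likeness of this size was not limited to this pair, but a highest value among so many genes does not tell how common it was. *DUSP1* and *FOS* had an r of 0.757 (permutation p = 0.00451, adjusted 0.0512) and a rho of 0.755 (permutation p = 0.00606, adjusted 0.0467). Their r was 0.662 without the 2 libraries farthest from the median of *DUSP1* and 0.880 within groups. *MYC* and *EGR1* ran opposite, with an r of -0.708 (permutation p = 0.0095, adjusted 0.0665) and a rho of -0.839 (permutation p = 0.00112, adjusted 0.0157). Their r was -0.759 without the 2 libraries farthest from the median of *MYC* but -0.05 within groups, so it did not hold between pools of a group. Besides *FOS* with *JUN*, no pair passed by Pearson's r, and *JUN* with *DUSP1* also passed by rank (rho 0.755, permutation p = 0.00667, adjusted 0.0467). The stages separate in *FOS* (E2.5) and in *EGR1* (E6.5), so the pooled values of pairs with these genes also hold the stage differences. All 12 libraries share their group structure, so permutation over libraries treats stages as exchangeable.

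The genes most alike each member by Pearson's r over the 12 libraries were sought among 7331 genes that averaged at least 5 TPM. *FOS* was most like *ZNF511* (0.937), and *JUN* most like *L3HYPDH* (0.937). *BTG2* was most like *MUL1* (0.944), a mitochondrial ubiquitin ligase, and *EGR1* most like *GNG4* (0.894), a G protein subunit. *MYC* was most like *ADD3* (0.857), *FOSL2* most like gga-mir-1778 (0.810) and *DUSP1* most like HIST1H103 (0.836). *ATF3* was most like *SLC12A1* (0.895), a salt cotransporter of kidney tubules. *GADD45A*, a stress and DNA damage gene, came second for both *ATF3* (0.750) and *DUSP1* (0.834). These values describe likeness of pattern in the same libraries and carry no test.

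Other genes of the same responses were read from 6 lists, whose calls were made in the reported fit only. Among other immediate early and dissociation-responsive genes, 45 of 58 names were in the table, 33 were tested at E6.5 over E2.5, 4 were higher (12.1%, beside 2.37% of all genes), 2 were lower (6.06%, beside 4.41%) and 27 did not pass. *CYR61*, a matricellular gene induced through serum and mechanical signals, averaged 19.3 ± 5.69 TPM at E6.5, against 3.23 ± 2.06 TPM at E2.5 (SD, n = 4 each), with a log2 fold change of 2.39 (limma adjusted p = 0.00791). *DUSP5*, a phosphatase of ERK, averaged 3.14 ± 1.54 TPM at E6.5, against 0.0835 ± 0.129 TPM at E2.5, with a log2 fold change of 1.86 (adjusted p = 0.0134). *GADD45B* had 1.23 (adjusted p = 0.0374) and the heat shock gene *HSPA2* 1.01 (adjusted p = 0.0139). The kinases *SGK1* and *PLK2* fell by 1.67 and 1.41 on the log2 scale (adjusted p = 0.0357 and 0.0273). The list's median log2 fold change was -0.04, beside -0.11 for all genes, so its members did not share a direction. Several textbook immediate early genes were at the floor, since *FOSB*, *NR4A1* and *ARC* were listed at 0 in every library and *EGR2* and *EGR3* did not exceed 0.277 and 0.196 TPM.

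Among AP-1 and other bZIP partners, 25 of 31 names were in the table and 21 were tested. At E6.5, 0 were higher (beside 2.37% of all genes) and 2 lower (9.52%, beside 4.41%). The lower genes were *MAFA* (log2 fold change -1.84, limma adjusted p = 0.00932) and *CEBPZ* (-1.15, adjusted p = 0.0332). *CEBPZ* was listed by its name but is not a bZIP factor, so the 9.52% counts a gene outside this family. *JUND* did not exceed 1.11 TPM in any library. Among regulators upstream of immediate early genes (serum response factor, its ETS cofactors, MAP kinases and their brakes), 39 were tested, and 1 was higher (*DUSP5*, also in the first list) and 2 lower. The lower genes were *DUSP6*, which dephosphorylates ERK and is itself induced by it, at 3.62 ± 2.73 TPM at E6.5, against 14.7 ± 1.78 TPM at E2.5 (SD, n = 4 each, log2 fold change -1.91, adjusted p = 0.0123), and *SPRY2*, an inhibitor of receptor tyrosine kinase signalling, at 22.9 ± 6.77 TPM, against 59.8 ± 11.4 TPM (log2 fold change -1.37, adjusted p = 0.00932). The shares called on this list, 2.56% higher and 5.13% lower, were near those of all genes tested (2.37% and 4.41%). No MAP kinase gene on the list passed the test.

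Of 19 tested genes of the ATF4 and unfolded protein response, which *ATF3* belongs to, 0 were called at E6.5 over E2.5, beside 6.79% of all genes. Of 19 tested p53 pathway genes, which include the circuit of *BTG2*, *PMAIP1* (a pro-death BH3 protein) was higher with a log2 fold change of 1.67 (limma adjusted p = 0.0212), and *FBXW7*, *CCNG2* and *PLK2* were lower. These were 1 gene or 5.26% higher (beside 2.37% of all genes) and 3 genes or 15.8% lower (beside 4.41%). *PLK2* is also in the first list, and *FBXW7* is also in the MYC network. Of 32 tested genes of the MYC network, *LDHA*, a glycolytic enzyme that MYC can induce, was higher, at 1580 ± 557 TPM at E6.5, against 254 ± 27.4 TPM at E2.5 (SD, n = 4 each, log2 fold change 2.57, adjusted p = 0.000384). *MYCN*, the *MYC* paralogue, was lower, at 20.6 ± 5.79 TPM at E6.5, against 56.2 ± 14.1 TPM at E2.5 (log2 fold change -1.40, adjusted p = 0.0111), and *MYCBP2* and *FBXW7* were also lower. On this list 1 gene or 3.12% was higher (beside 2.37% of all genes) and 3 genes or 9.38% were lower (beside 4.41%). *MYCN* was thus more abundant than *MYC* at both ends, at E6.5 with 20.6 TPM, against 1.50 TPM of *MYC*, and at E2.5 with 56.2 TPM, against 11.97 TPM of *MYC*. Over the sex comparisons and the other stage comparisons, the 1 call on the 6 lists was *GADD45G* at E6.5, with 37.4 ± 7.97 TPM in females, against 99.9 ± 12.8 TPM in males (SD, n = 2 each, log2 fold change -1.40, adjusted p = 0.0380). *GADD45G* was also lower in both female pools at the other stages, without a call. At E2.5 it had 23.3 and 23.9 TPM in female and 48.4 and 60.1 TPM in male pools. At E4.5 it had 30.2 and 31.4 TPM in female and 77.45 and 110 TPM in male pools. Of all genes, 36.5% lay wholly lower in females at E2.5 and 9.17% at E4.5.

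**Figure D5:**
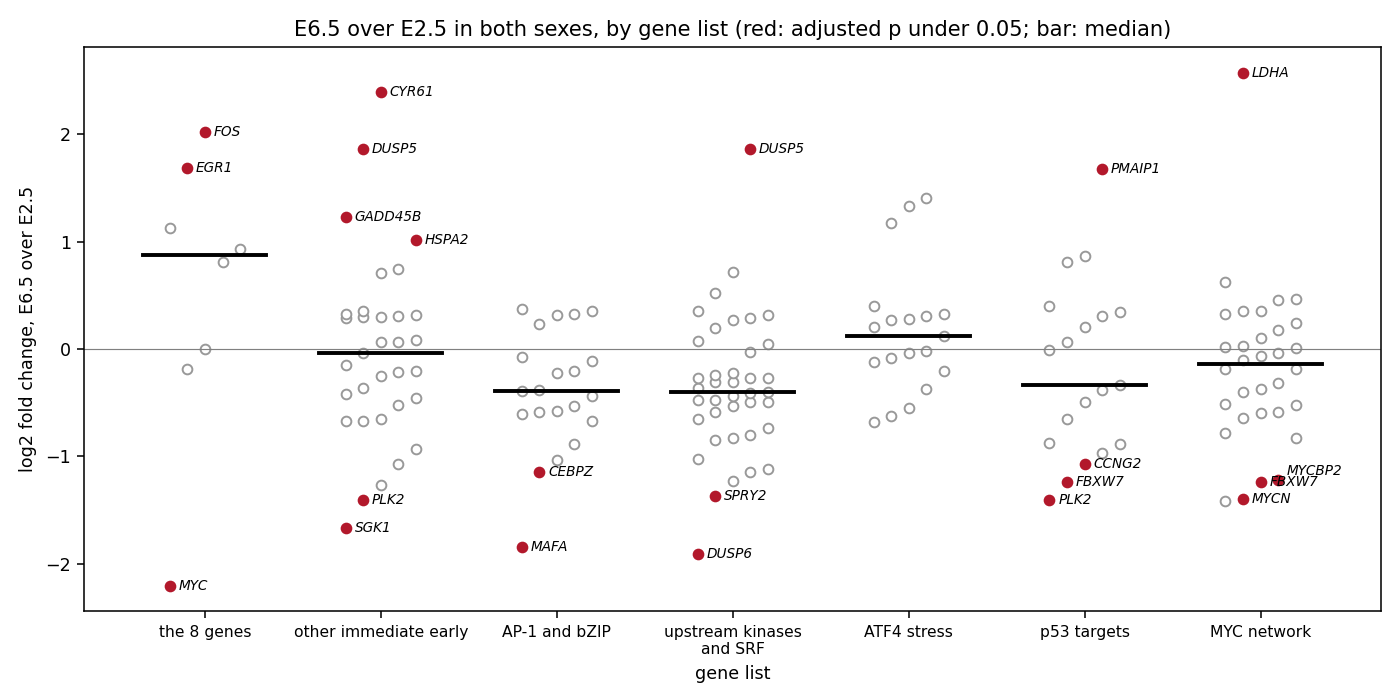
Log2 fold change at E6.5 over E2.5 (y axis, log2(TPM + 1) scale, n = 4 libraries each) of the 8 genes and of each tested gene of the 6 lists (x axis), red and named where the adjusted p is under 0.05, with a bar at each list's median. The 8 genes have a median of 0.87, with *FOS* and *EGR1* high and *MYC* low, while no other list has a median above 0.12.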

How the data were processed

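The authors trimmed reads (Trimmomatic 0.39, Trim Galore 0.6.6, Cutadapt 3.1), aligned them to GRCg6a with STAR 2.7.3a and tallied uniquely aligned reads with featureCounts 2.0.1. The deposited values are TPM per gene and library, and how counts became TPM is not given in the sources used here. Reads per gene were recovered as whole multiples of the value of 1 read (100% of the low values within 0.05 of a whole number). Comparisons used limma 3.58.1 (R 4.3.3, eBayes with trend) on log2(TPM + 1), for genes reaching 1 TPM in 2 or more of the libraries compared, with Benjamini-Hochberg adjustment over all genes tested, and a call at an adjusted p under 0.05. All 8 genes passed this filter in every comparison. The sexes were fitted on the 4 libraries of a stage, stages on 8 libraries with sex as a covariate, and the interaction on 12. Limma was chosen because the deposited values are TPM, and the study's count model was not run, also not on the recovered reads. Recovered reads entered the tests only through an alternative fit (limma-voom). Correlations used 100000 permutations. Each library is a separate pool of embryos, and p-values measure the spread between these pools. Log2 fold changes of all 8 genes are given at E6.5 over E2.5. For the other stage comparisons they are given for *FOS*, *JUN*, *EGR1* and *MYC* only. Between the sexes they are given only for the genes whose pools did not overlap. List genes are named where called or at the floor, and the 3 most alike genes per member were sought. *SRF*, *SPRED1*, *MAPK11*, *SPRY1* and the abundance examples *JUND*, *COL3A1*, *COL1A1*, *COL1A2*, *PDGFRA*, *DCN*, *SOX9*, *AMH*, *LHX9* and *NR5A1* were chosen after their values were seen. The members and lists were chosen with earlier results of these data known. Figures were drawn with matplotlib 3.10.9.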

Additional observations from a re-analysis of the deposited data

How the results depend on the processing

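For E6.5 over E2.5, 3 of 8 genes were called. This became 0 without the filter on low values, 0 with all 12 libraries in one fit, 0 when a call also needed an absolute log2 fold change of 3, and 1 with the replicate number as a block (*FOS*; *EGR1* adjusted p = 0.0651, *MYC* 0.0505). The count ran between 1 and 5 over the fits that left out 1 library. It was 3 with a pseudocount of 0.1, 3 with limma-voom on recovered reads, 2 at a mean of 5 TPM or more (*EGR1* was not testable) and 4 with median-of-ratios scaling, which added *JUN* (adjusted p = 0.0274). Chosen after seeing the data, removal of erythroid markers gave 3, and leaving out both first pools of E2.5 gave 3 with *DUSP1* (adjusted p = 0.0483) in place of *MYC*. The cause of these shifts was not tested. Over 17 alternatives *FOS* was called in 15 (log2 fold change 1.82 to 2.56) and *MYC* in 10 (-3.07 to -1.40), and *EGR1* in 9 of 16 (1.44 to 2.36). In every other comparison, 0 of 8 genes were called under every alternative run. *BTG2* at E6.5 over E2.5 turned to 0.0056 with the pseudocount of 0.1, 0.13 with median-of-ratios scaling and 0.41 without both first pools of E2.5, and ran between -0.18 and 0.22 over fits leaving out 1 library. At E6.5 over E4.5, *FOS* ran between -0.50 and 0.25 and *JUN* between -0.96 and 0.11 over such fits, and reached 0.67 and 0.63 without both first pools of E4.5.

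Over all genes, the calls at E6.5 over E2.5 were 909 (318 higher, 591 lower), against 382 without the filter, 280 in one fit, 181 with the block, 1608 with limma-voom, 1389 without both first pools of E2.5, 1335 (322 higher, 1013 lower) with erythroid markers removed and 1275 (679 higher, 596 lower) with median-of-ratios scaling, which moved the median of all genes to 0.03. Leaving-out fits aside, calls ran between 0 and 26 at E4.5 over E2.5 (10 in the fit reported, 31 without both first pools of E4.5), and between the sexes from 10 to 563 at E2.5 (30), 0 to 51 at E4.5 (2) and 10 to 563 at E6.5 (263). The deviations of same-numbered pools correlated between the sexes at 0.23 (E2.5), 0.63 (E4.5) and -0.11 (at E6.5), and -0.18 to 0.38 between stages, so the numbers were not taken as pairs. Pairing the E6.5 pools crosswise, a fit chosen after these correlations were seen, gave 563 calls and 0 of the 8 genes. *EGR1* and *MYC* rest on as few as 10 and 5 reads in a library, so their low values are imprecise.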

Other observations

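Besides *FOS* and *JUN*, several regulators upstream of immediate early genes differed between the E4.5 pools, as many other genes did. Of the listed regulators expressed at E4.5, 14 of 36 in females (38.9%) and 13 of 37 in males (35.1%) were at least 2-fold higher in pool 1 on the log2(TPM + 1) scale, close to the 34.5% in females and 34.0% in males over all expressed genes, and 2 in females and 5 in males were at least 2-fold lower. The genes named here were chosen after their values were seen. *DUSP6* had 16.8 TPM in female pool 1 and 12.9 TPM in male pool 1, close to the 12.2 to 16.1 TPM of the E2.5 libraries, while the second pools had 4.54 TPM in females and 3.38 TPM in males. *MYCN* had 64.1 TPM in female and 70.5 TPM in male first pools, and 25.2 TPM in female and 19.4 TPM in male second pools. *SPRED1*, another brake on this signalling, had 49.9 TPM in female and 54.1 TPM in male first pools, and 12.6 TPM in female and 13.1 TPM in male second pools. *SRF*, the factor that drives *FOS* and *EGR1* in many cells, had 24.5 TPM in female and 27.1 TPM in male first pools, and 1.69 TPM in female and 1.92 TPM in male second pools. *SRF* also had 19.3 TPM in E2.5 male pool 1 and 8.10 TPM in E6.5 male pool 1, the libraries with the highest *FOS* of their stages. In E2.5 females both genes were higher in pool 2, with *SRF* at 2.16 TPM in pool 1 and 5.55 TPM in pool 2. In E6.5 females they differed, with *SRF* at 2.37 and 1.98 TPM where *FOS* had 6.74 and 10.8 TPM. *MAPK11*, a p38 kinase gene, ran the other way, with 41.7 TPM in female and 58.8 TPM in male first pools, and 172 TPM in female and 165 TPM in male second pools, and *SPRY1* had 5.59 TPM in the male first pool and 12.6 TPM in the male second pool. *EGR1* did not follow, with 1.69 TPM in female and 1.74 TPM in male first pools, and 2.32 TPM in female and 3.41 TPM in male second pools at E4.5. These values are single pools and carry no test.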
